A study of Mus musculus with 8 samples.

Results

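Fatty acid oxidation and ketogenesis were followed through 37 genes, picked by name from the 56748 genes of the count table by a rule that uses no measured value. All 37 were found in the table and all passed the filter on low counts that left 14279 genes for testing. RNA came from mouse primary hepatocytes kept for 24 h on collagen-coated polyacrylamide hydrogels of 1 kPa (soft) or 20 kPa (stiff), with 2 libraries for each of the 4 groups. Every mouse, controls included, was of the Yap fl/fl; Taz fl/fl line on C57BL/6J and was injected at 7 to 8 weeks of age. Knockout (KO) mice received AAV8-TBG-Cre, in which the thyroxine-binding globulin promoter limits Cre to hepatocytes, and the animals called wild type received AAV8-TBG-Null. Hepatocytes were isolated 10 days after the virus. The study's methods add a ROSA26 tdTomato reporter that Cre switches on in this line, so that KO cells also differ in the reporter. The series text calls these mice female, while the culture protocol and the methods call them male. The labels do not say whether the 2 libraries of a group came from separate mice, so p-values measure the spread between these libraries, which may be technical.

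Fatty acids enter hepatocytes, are joined to coenzyme A, and cross into mitochondria as carnitine esters. There a cycle of dehydrogenase, hydratase, second dehydrogenase and thiolase shortens the chain, handing electrons to the respiratory chain through the electron transfer flavoprotein. Peroxisomes run a parallel cycle on very long and branched chains and pass the shortened products on. In the fasted liver the acetyl-CoA that results is turned into ketone bodies, and the nuclear receptor PPARα, encoded by Ppara, switches on many genes of both cycles together with the fasting hormone FGF21.

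Library totals lay between 18324083 and 26442310 counts, and the members took 0.461% to 0.486% of them. Yap1 had 1720 to 2913 counts in wild-type and 606 to 747 in KO libraries, and Wwtr1, which encodes TAZ, 748 to 1325 and 277 to 410. RNA of both genes was thus still counted in KO. With stiffness in wild type the log2 fold changes were 0.49 (Yap1) and 0.62 (Wwtr1), and only Wwtr1 was called by the test used below. The 8 hepatocyte markers found in the table summed to 92760 to 96140 CPM (counts scaled to the TMM-adjusted library size) in wild type. In KO they summed to 64690 to 65370, and most of each sum was albumin. Albumin was called lower in KO on both hydrogels (-0.58 on soft and -0.66 on stiff). No other of these markers was called between genotypes on soft, while 2 were called higher in KO on stiff. Between the wild-type groups 3 of these 8 fell by the test used below and 0 rose. The 3 were Hnf4a (mean of 371.9 CPM on soft and 189.2 on stiff), Tat (57.0 and 34.7) and Fgb (2162 and 1429). In KO the means on soft and stiff were 423.4 and 425.6 for Hnf4a, 77.1 and 70.2 for Tat, and 1596 and 1530 for Fgb. The 10 for stellate cells and fibroblasts summed to 37.1 to 37.6 CPM in wild type on the soft hydrogel, 24.95 to 26.8 on the stiff, 53.0 to 54.2 in KO on the soft and 54.6 to 57.5 on the stiff. The 8 for Kupffer cells and macrophages gave 80.9 to 84.0, 56.8 to 62.5, 115.7 to 116.7 and 118.1 to 119.7 CPM in the same order, and the 8 for endothelial cells 62.8 to 68.8, 49.5 to 50.9, 81.8 to 83.4 and 84.5 to 87.0. Between the wild-type groups 1 stellate marker was higher and 4 were lower by the test used below, as were 4 Kupffer and 3 endothelial markers, all lower. No endothelial or Kupffer marker was at 0 counts in both libraries of a group, and 1 stellate marker, Lrat, was, in wild type on the stiff hydrogel. The 6 cholangiocyte markers summed to 548.3 to 583.7 CPM in wild type on soft, 598.6 to 602.4 on stiff, 344.5 to 348.2 in KO on soft and 320.4 to 332.7 on stiff, most of it Spp1, with Cftr at 0 in all 8 libraries. Among them Krt19 rose by 3.30 with stiffness in wild type, from a mean of 2.13 to 20.6 CPM, and Krt19 and Spp1 were called lower in KO on each hydrogel. On the soft hydrogel 4 stellate, 3 Kupffer and 2 endothelial markers were called higher in KO, and on the stiff hydrogel 7, 7 and 6, with 1 stellate marker lower. Of the 5 adipocyte markers, Adipoq and Lep were at 0 in all 8 libraries, and the sum of 8.73 to 23.7 CPM was almost wholly Cidec. The part of other cells in the results below was not tested. In bulk RNA fewer cells of a type and less RNA per cell cannot be told apart.

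Levels of the members spanned a wide range. Per kilobase of the gene length in the table, Plin2, which coats lipid droplets, was the highest on the soft hydrogel in wild type at 300.0 CPM per kb. Fabp1, the main fatty acid binding protein of the hepatocyte cytosol, followed at 194.8 and Acaa2, the mitochondrial thiolase, at 180.1 CPM per kb. The lowest were Ppargc1a, a coactivator of PPARα, at 0.315 and the thioesterase gene Acot1 at 0.393 CPM per kb. Ppara itself stood at 2.46 CPM per kb. Within the dehydrogenases that open the mitochondrial cycle, Acadl (long chains) stood at 82.3, Acads (short chains) at 57.9, Acadm (medium chains) at 57.1 and Acadvl (very long chains) at 35.2 CPM per kb. This order depends on the length used. For Acadm the table gives 3913 bases where its longest transcript has 2047, against 2005 and 1916 for Acadl. The median member had a mean of 1595 counts per library against 386.9 for the median tested gene, and 2 members, Ppargc1a and Acot1, had a mean under 60 counts.

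**Figure D1:**
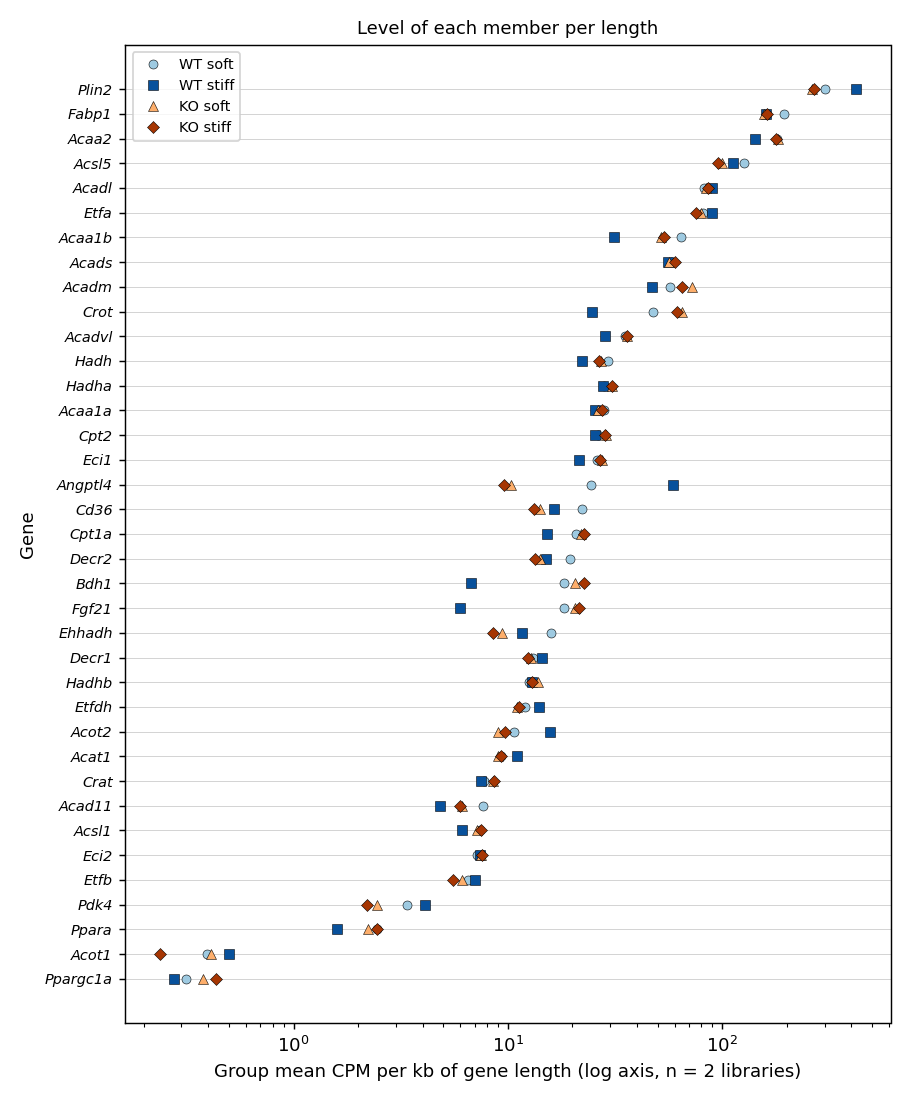
Mean level of each of the 37 members in the 4 groups, in CPM per kilobase of gene length on a log axis, with members ordered by their level in wild type on the soft hydrogel (n = 2 libraries per point). Plin2 is at the top with 300.0 CPM per kb and Ppargc1a at the bottom with 0.315, and the wild-type stiff squares of Bdh1, Fgf21 and Angptl4 stand away from the other symbols of their row.

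The first comparison asked which of these genes differ with stiffness in wild-type cells. On the stiff hydrogel 6 members were lower and 2 were higher, where a call needs an adjusted p below 0.05 and a log2 fold change of more than 0.5 in size, thresholds taken from the study (edgeR's quasi-likelihood test, adjusted over all 14279 genes). Fgf21, Bdh1, Acaa1b, Crot, Acad11 and Ppara fell, and Angptl4 and Acot2 rose. Over all tested genes 9.26% were called lower and 10.0% higher, 19.3% in all, so that the 8 of 37 members (21.6%) lie near the background share. The median member had a log2 fold change of -0.17 against -0.0087 for all genes. With no minimum fold change 18 members were lower and 7 higher (67.6%), where 41.0% of all genes passed; the members also carry more counts than most genes. In 21 members both stiff libraries lay below both soft libraries and in 9 above, where 34.8% and 34.0% of all genes did so.

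**Figure D2:**
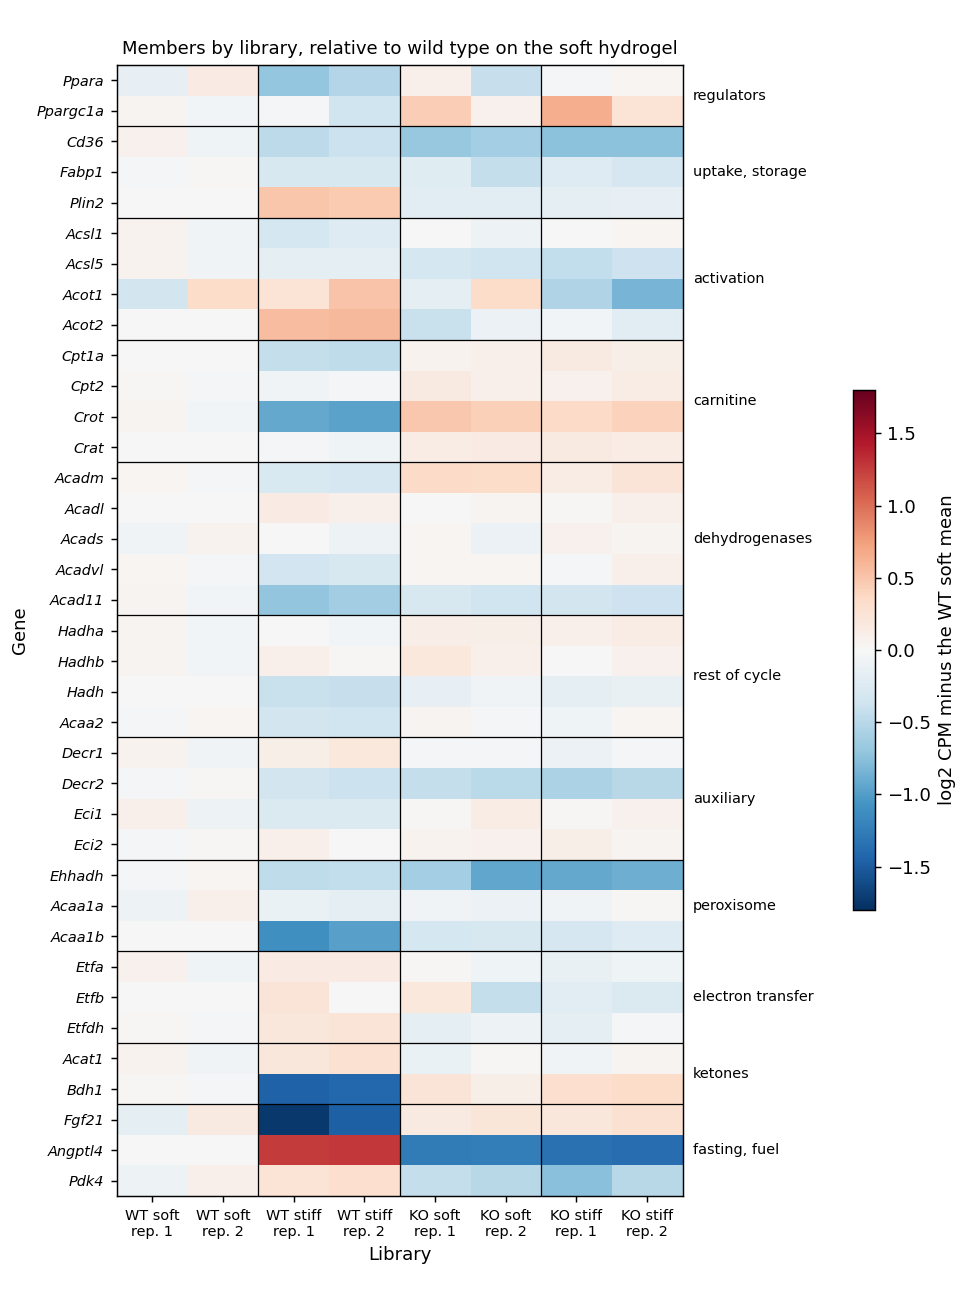
Each of the 37 members (rows, grouped by role) in each of the 8 libraries (columns), as log2 CPM minus the mean of both wild-type soft libraries, blue for lower and red for higher. The 2 wild-type stiff columns hold the deepest blue, in Fgf21 and Bdh1, and the deepest red, in Angptl4, and the 4 KO columns show neither in these genes apart from the lower Angptl4.

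Among the hormones and the fuel switch, Fgf21 and Angptl4 went opposite ways. Fgf21 (ENSMUSG00000030827, chromosome 7 from 45263310 to 45264914) encodes the fasting hormone of the liver. It had 15.4 and 19.2 CPM in wild type on soft, 5.16 and 6.20 in wild type on stiff, 19.3 and 20.0 in KO on soft and 19.9 and 20.9 in KO on stiff. Both wild-type stiff libraries lay apart below the other 6. The gene fell by 1.60 on the log2 scale between the wild-type groups (SE 0.14, adjusted p = 2.24e-08, edgeR). Angptl4 (ENSMUSG00000002289, chromosome 17 from 33992724 to 34000804) encodes a secreted inhibitor of lipoprotein lipase. It had 86.7 and 87.0 CPM in wild type on soft, 207 and 209 in wild type on stiff, 36.5 and 36.5 in KO on soft and 34.3 and 33.5 in KO on stiff. The groups did not overlap by genotype or by stiffness, with wild type on the stiff hydrogel highest and the 2 KO groups close together. It rose by 1.26 (SE 0.048, adjusted p = 3.79e-13, edgeR). Pdk4 encodes the kinase that shuts the pyruvate dehydrogenase complex and so spares glucose when fat is burned. It had 11.2 and 12.6 CPM in wild type on soft, 14.1 and 14.7 in wild type on stiff, 8.86 and 8.40 in KO on soft and 7.03 and 8.40 in KO on stiff. Its log2 fold change with stiffness in wild type was 0.28 (SE 0.13, adjusted p = 0.0879, edgeR), which did not pass.

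Of the ketone body pair, Bdh1 fell and Acat1 did not pass. Bdh1 (ENSMUSG00000046598, chromosome 16 from 31241098 to 31277719) encodes the dehydrogenase that makes β-hydroxybutyrate from acetoacetate. It had 71.8 and 70.3 CPM in wild type on soft, 25.8 and 26.8 in wild type on stiff, 83.3 and 76.1 in KO on soft and 87.3 and 89.2 in KO on stiff. The wild-type stiff libraries lay far below each of the other 6. The fall was 1.43 on the log2 scale (SE 0.064, adjusted p = 3.46e-12, edgeR), to 0.370 of the soft level. Acat1, the mitochondrial acetoacetyl-CoA thiolase, had 36.7 and 33.4 CPM in wild type on soft, 40.5 and 42.5 in wild type on stiff, 32.2 and 35.7 in KO on soft and 33.4 and 36.2 in KO on stiff. Its log2 fold change was 0.24 (SE 0.077), under the fold threshold.

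Of the 3 peroxisomal genes 1 was called, Acaa1b, and all 3 had negative values. Acaa1b (ENSMUSG00000010651, chromosome 9 from 118977091 to 118986161), 1 of a pair of genes for the peroxisomal thiolase, had 126 and 125 CPM in wild type on soft, 58.6 and 63.8 in wild type on stiff, 101 and 103 in KO on soft and 102 and 107 in KO on stiff. The wild-type stiff libraries were lowest and did not overlap any other group, and the gene fell by 1.04 (SE 0.055, adjusted p = 3.53e-11, edgeR). Its neighbour Acaa1a had a log2 fold change of -0.14 (SE 0.058, adjusted p = 0.0621, edgeR). The longest transcripts of this pair share sequence, in 30.3% of the 64-base windows of Acaa1b and 13.6% of those of Acaa1a, so the counts of each are uncertain where reads could be split. Acaa1a further overlaps Myd88 (806 counts on average), which is read in the opposite direction. Ehhadh, the bifunctional hydratase and dehydrogenase of peroxisomes, had 46.4 and 48.5 CPM in wild type on soft, 34.5 and 35.1 in wild type on stiff, 31.2 and 24.9 in KO on soft and 25.1 and 25.7 in KO on stiff. On the stiff hydrogel its wild-type log2 fold change was -0.45 (SE 0.086), short of the fold threshold although the groups did not overlap.

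In the carnitine system 1 of 4 members was called. Crot (ENSMUSG00000003623, chromosome 5 from 9016033 to 9047324), the octanoyltransferase that readies chains shortened in peroxisomes for export to mitochondria, had 267 and 251 CPM in wild type on soft, 136 and 132 in wild type on stiff, 361 and 349 in KO on soft and 327 and 345 in KO on stiff. Each wild-type stiff library was below every other library and the KO libraries were highest. Crot fell by 0.95 on the log2 scale (SE 0.047, adjusted p = 1.22e-11, edgeR). Cpt1a (ENSMUSG00000024900, chromosome 19 from 3372334 to 3435733), the outer-membrane palmitoyltransferase at which malonyl-CoA controls entry of long chains, had 158 and 159 CPM in wild type on soft, 118 and 115 in wild type on stiff, 165 and 169 in KO on soft and 176 and 170 in KO on stiff. Its groups did not overlap in wild type, and the log2 fold change of -0.44 (SE 0.047, adjusted p = 4.58e-07, edgeR) fell short of 0.5. Cpt2, on the inner membrane, and Crat, for acetyl groups, had values of -0.051 (95% interval -0.17 to 0.069) and -0.050 (-0.18 to 0.082).

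Of the 9 genes for acyl-CoA dehydrogenases and the later steps of the mitochondrial cycle 1 was called, Acad11. Acad11 (ENSMUSG00000090150, chromosome 9 from 103940576 to 104004924), which acts on long chains and is found in peroxisomes as well, had 77.7 and 72.3 CPM in wild type on soft, 46.0 and 48.6 in wild type on stiff, 61.2 and 58.2 in KO on soft and 59.6 and 58.1 in KO on stiff. The wild-type stiff libraries were the lowest, and the fall was 0.67 (SE 0.061, adjusted p = 6.74e-08, edgeR). The other dehydrogenases had log2 fold changes of -0.32 (Acadvl), -0.29 (Acadm), -0.042 (Acads) and 0.12 (Acadl). None of the 4 genes for the later steps was called. Hadha and Hadhb, the α and β subunits of the trifunctional protein for long chains, had values of -0.030 (95% interval -0.13 to 0.067) and 0.052 (-0.070 to 0.17). Hadh, which serves shorter chains, and Acaa2 had values of -0.41 and -0.34, with adjusted p of 1.98e-06 and 9.27e-06 (edgeR), both short of the fold threshold. The isomerases and reductases for double bonds ran from -0.36 (Decr2, peroxisomal) and -0.27 (Eci1, mitochondrial) to 0.046 (Eci2) and 0.14 (Decr1, mitochondrial). Electron transfer genes were all on the positive side, at 0.14 for Etfa, 0.11 for Etfb and 0.21 for Etfdh, and none was called. Etfb shares 66.7% of its windows with another gene model and its count is uncertain.

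Of the 7 genes for the uptake, storage and activation of fatty acids 1 was called, Acot2. Acot2 (ENSMUSG00000021226, chromosome 12 from 84034635 to 84040647), a mitochondrial thioesterase that frees fatty acids from coenzyme A, had 23.5 and 23.2 CPM in wild type on soft, 34.4 and 35.0 in wild type on stiff, 17.8 and 21.8 in KO on soft and 22.5 and 20.3 in KO on stiff. The wild-type stiff libraries were the highest, and Acot2 rose by 0.57 (SE 0.095, adjusted p = 9.70e-05, edgeR). Its cytosolic paralog Acot1, which shares 16.0% of its windows with Acot2, had only 17 to 42 counts in a library and a value of 0.37 (SE 0.34). Plin2 had 1054 and 1053 CPM in wild type on soft, 1491 and 1455 in wild type on stiff, 924 and 918 in KO on soft and 937 and 948 in KO on stiff. The wild-type groups did not overlap, and its log2 fold change of 0.48 (SE 0.031, adjusted p = 5.40e-10, edgeR) lay just under the threshold. Cd36, the fatty acid translocase, had 83.8 and 74.7 CPM in wild type on soft, 57.3 and 60.5 in wild type on stiff, 49.5 and 52.0 in KO on soft and 47.6 and 47.4 in KO on stiff. Its wild-type value was -0.43 (SE 0.064), short of the fold threshold. Cd36 is known from endothelial cells and macrophages too, of which 3 of 8 and 4 of 8 markers were called lower on stiff in wild type. On soft 2 of 8 and 3 of 8 were called higher in KO, where Cd36 was lower. The part of these cells in the Cd36 values was not tested. Fabp1 had a value of -0.29 (SE 0.063), and the long-chain acyl-CoA synthetases Acsl1 and Acsl5 of -0.27 and -0.17, none of them called. Acsl5 overlaps Zdhhc6, Crat overlaps Dolpp1 and Acadvl overlaps Dvl2 on opposite strands, with 1609, 227.1 and 366.8 mean counts in the partner, so that reads there could be of either gene if the counting did not use strand.

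Both regulators had few counts. Ppara (ENSMUSG00000022383, chromosome 15 from 85619184 to 85687020) had 8.47 and 10.4 CPM in wild type on soft, 5.79 and 6.50 in wild type on stiff, 9.99 and 7.06 in KO on soft and 9.23 and 9.63 in KO on stiff. The wild-type stiff libraries were below the other 6. Ppara fell by 0.61 on the log2 scale (SE 0.17, adjusted p = 0.00937, edgeR), and this call was lost without the second wild-type soft library (-0.46, adjusted p = 0.0813, edgeR) and without the first wild-type stiff library (-0.52, adjusted p = 0.0864, edgeR). Ppargc1a had 2.16 and 2.00 CPM in wild type on soft, 2.02 and 1.63 in wild type on stiff, 2.81 and 2.19 in KO on soft and 3.28 and 2.47 in KO on stiff. The wild-type groups overlapped, and at 32 to 72 counts in a library a log2 fold change of -0.19 with a 95% interval of -0.78 to 0.41 was not distinguishable from 0.

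**Figure D3:**
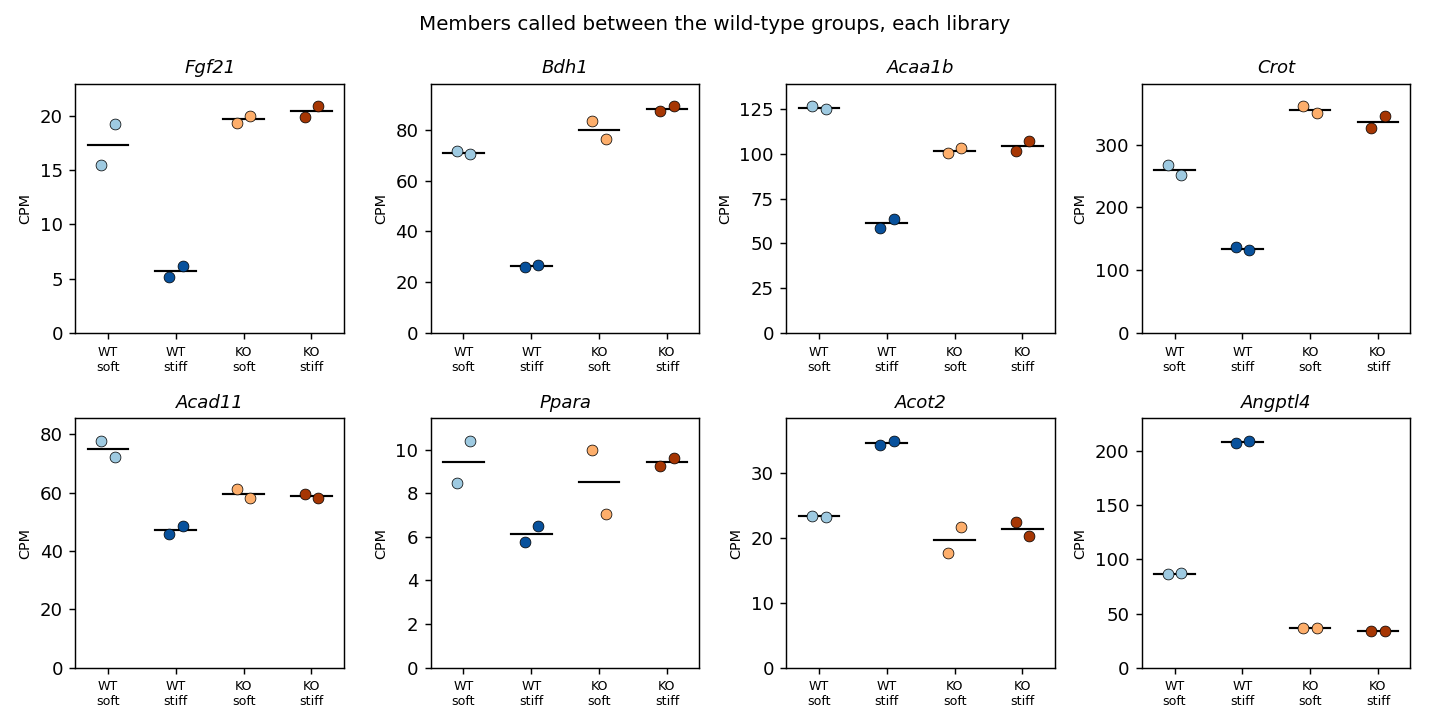
CPM of the 8 members called between the wild-type groups, in each library (points) with the group mean (line, n = 2), on linear axes from 0. In Fgf21, Bdh1, Acaa1b, Crot, Acad11 and Ppara the wild-type stiff points are the lowest, and in Acot2 and Angptl4 the highest.

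In Yap/Taz KO cells the same comparison gave no call. In KO hepatocytes 0 of 37 members were called between the hydrogels by edgeR and 0 by DESeq2, and 2 (Bdh1 and Acadm) had an unadjusted p under 0.05. The background was 0.0210% of all genes, of which 0.0140% lay higher and 0.00700% lower. Libraries did not overlap in 5 members that were higher and 10 that were lower (20.9% and 17.2% of all genes). The smallest adjusted p of a member was 0.565 (edgeR). Apart from Acot1 at -0.76 (95% interval -1.53 to 0.010), log2 fold changes lay between -0.17 and 0.19, with a median of -0.0068 against 0.0076 for all genes. For the 8 members called in wild type the 95% intervals of the KO value lay within -0.22 and 0.49. In all 8 the wild-type value was outside that interval. The 8 were chosen by their wild-type value, so this is no test of a difference between genotypes. Fgf21 was 0.053 (-0.19 to 0.29), Bdh1 0.14 (0.024 to 0.26), Crot -0.080 (-0.17 to 0.014), Acaa1b 0.038 (-0.075 to 0.15) and Angptl4 -0.10 (-0.22 to 0.015) on this scale.

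**Figure D4:**
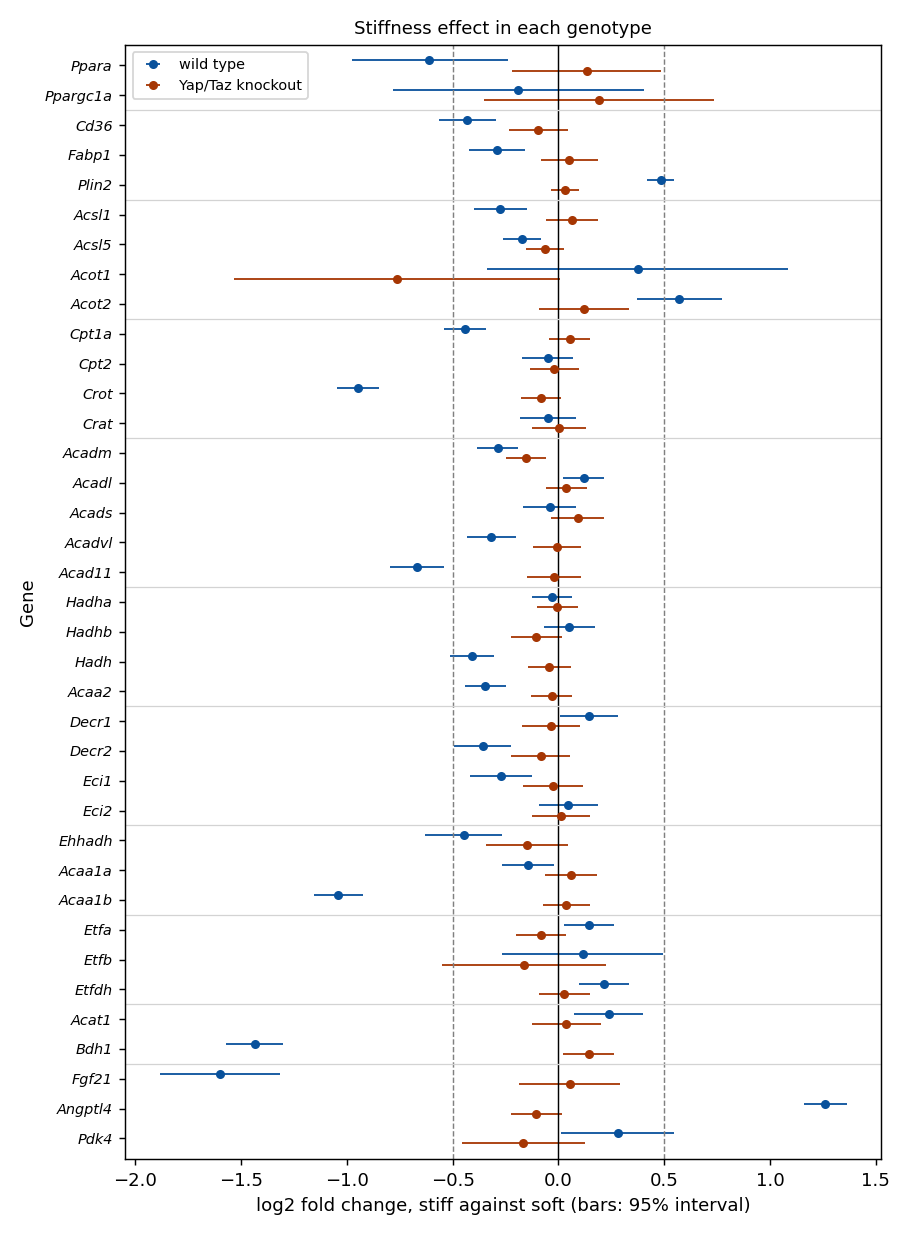
Log2 fold change of each member between the stiff and the soft hydrogel in wild type (blue) and Yap/Taz KO (brown), with 95% intervals from the fit and dashed lines at -0.5 and 0.5. The KO points stay between -0.17 and 0.19 apart from Acot1, while the wild-type points run from -1.60 (Fgf21) to 1.26 (Angptl4).

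The difference between the genotypes was tested by the interaction, the KO stiffness effect minus that of wild type. It uses the same wild-type libraries, so its calls are not independent of those above. For 6 members the effect was more positive in KO and for 1 more negative, where 8.64% and 8.21% of all genes were called in these directions and 16.8% in all. With no minimum fold change 14 were more positive and 4 more negative, 48.6% of members against 29.4% of all genes. These 7 were among the 8 called in wild type. The largest were Fgf21 at 1.65 (SE 0.18, adjusted p = 1.03e-06, edgeR), Bdh1 at 1.58 (SE 0.086, adjusted p = 1.44e-10) and Angptl4 at -1.36 (SE 0.074, adjusted p = 1.36e-10). Acaa1b, Crot and Acad11 had values of 1.08, 0.87 and 0.65. Ppara, at 0.74 (SE 0.24, adjusted p = 0.0274, edgeR), was not called by DESeq2 (adjusted p = 0.0848). Its edgeR call was also lost without the second wild-type soft (0.59), the first wild-type stiff (0.65), the second KO soft (0.52) or the second KO stiff library (0.70). Acot2 had -0.45 (SE 0.14, adjusted p = 0.0203, edgeR), and Plin2 and Cpt1a had -0.45 and 0.49, each short of the fold threshold.

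Genotype was then compared on each hydrogel, to ask how far the KO cells stood from wild type. These comparisons share libraries with those above. On the soft hydrogel 3 members were lower in KO and 0 higher, where 4.65% and 2.02% of all genes were called, and 2 members had a higher level at an adjusted p under 0.05 with no minimum fold change (Crot at 0.46 and Acadm at 0.34). In both directions 6.67% of all genes were called, and 18.4% with no minimum fold change, against 12 of the 37 members. Libraries did not overlap in 11 members that were higher and 13 that were lower in KO, where 27.6% and 28.6% of all genes did so. DESeq2 also called 0 higher. Angptl4 fell by 1.25 (SE 0.052, adjusted p = 8.12e-12, edgeR), Ehhadh by 0.75 (SE 0.087, adjusted p = 3.86e-06) and Cd36 by 0.65 (SE 0.064, adjusted p = 5.63e-07). None of these is a member whose wild-type stiffness call was a fall. Fgf21, Bdh1 and Cpt1a had values of 0.19 (95% interval -0.051 to 0.44), 0.17 (0.047 to 0.29) and 0.076 (-0.021 to 0.17). The median member was at -0.034, and at 0.020 when libraries were scaled by size alone, so no direction is given for the list.

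On the stiff hydrogel 6 members were higher and 5 lower in KO, where 13.7% and 15.0% of all genes were called and 28.7% in all, again a share near the background. With no minimum fold change 16 were higher and 13 lower (78.4% against 51.1%), and libraries did not overlap in 19 and 14 (37.7% and 36.8% of all genes). Higher were Fgf21 at 1.84 (SE 0.13), Bdh1 at 1.75 (SE 0.064), Crot at 1.32 (SE 0.047), Acaa1b at 0.77 (SE 0.056), Ppara at 0.62 (SE 0.18) and Cpt1a at 0.57 (SE 0.047). Ppara lost its call without the first wild-type stiff library (0.52, adjusted p = 0.0689, edgeR). Lower were Angptl4, which fell by 2.62 (SE 0.053, adjusted p = 2.10e-17, edgeR), Pdk4 by 0.90 (SE 0.13), Acot2 by 0.70 (SE 0.097), Plin2 by 0.64 (SE 0.031) and Acot1 by 1.06 (SE 0.36, adjusted p = 0.0207, edgeR). The Acot1 call rests on 17 to 42 counts in a library. It was lost in DESeq2 (adjusted p = 0.0789) and without the second library of either group. The KO level of Crot was also above wild type on the soft hydrogel, although short of a call there, at 349 and 361 against 251 and 267 CPM. Ehhadh had -0.45 and Acad11 0.32 on the stiff hydrogel, both short of the fold threshold.

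**Figure D5:**
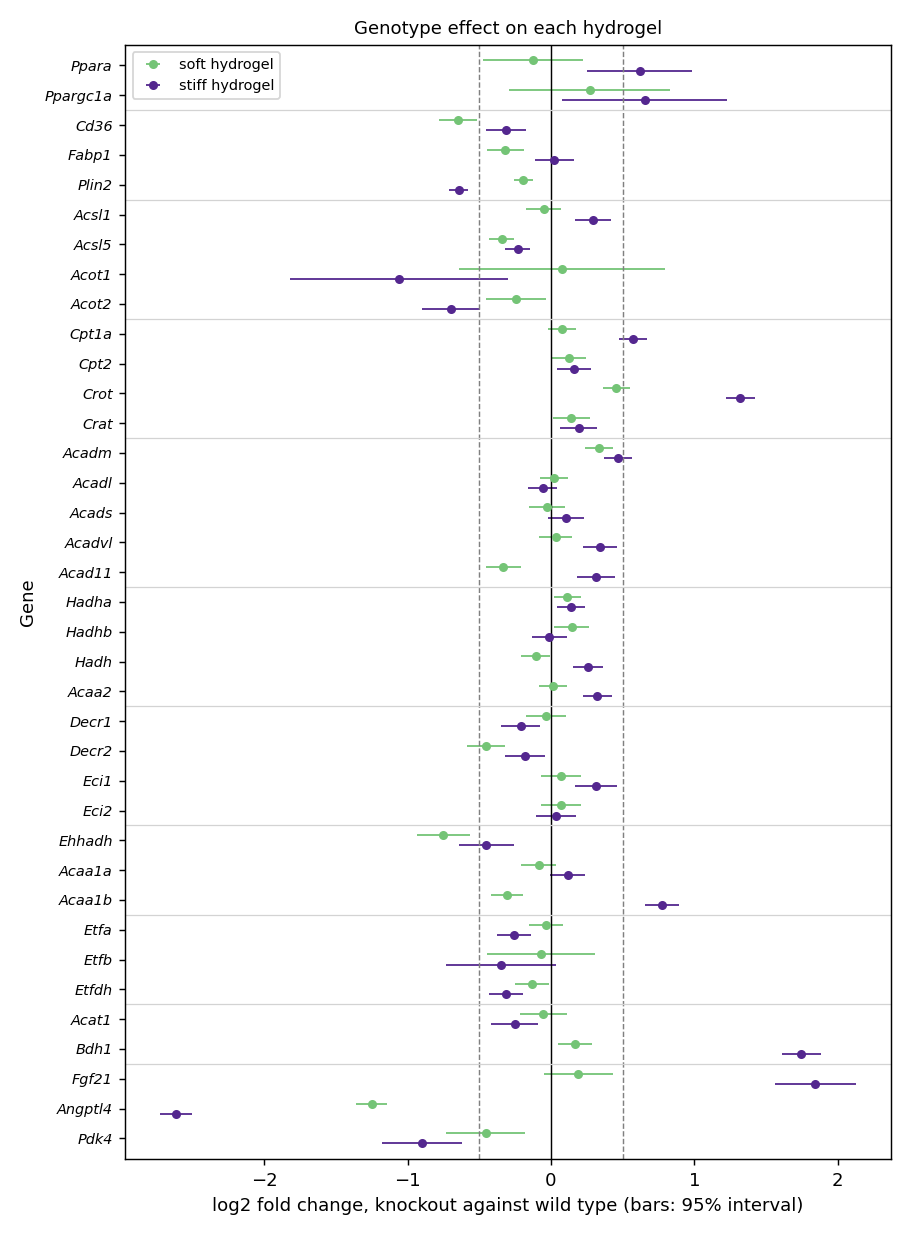
Log2 fold change of each member between Yap/Taz KO and wild type on the soft (green) and the stiff hydrogel (purple), with 95% intervals and dashed lines at -0.5 and 0.5. Angptl4 is lowest on both hydrogels (-1.25 and -2.62), and Fgf21 (1.84), Bdh1 (1.75) and Crot (1.32) are furthest right on the stiff hydrogel.

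Other genes of the same pathways, 90 chosen by role and 84 of them tested, were read in the same fit. In wild type 23 were lower and 7 higher on the stiff hydrogel (35.7% against 19.3% of all genes), with a median of -0.14. Among the largest falls were those of Abcd2, a peroxisomal transporter of very long chains (-1.48), the lipid droplet gene Cidec (-1.37), Acsm5, a medium-chain acyl-CoA synthetase (-1.20), and Acss3 (-1.13). Creb3l3, a liver transcription factor that acts with PPARα on Fgf21, fell by 1.05. Peroxisomal Acox2 and Scp2 fell by 0.77 and 0.81. The largest rises were in Cyp4a32 (1.08, from 0.718 to 1.54 CPM), the uncoupling protein gene Ucp2 (0.80) and Oxct1 (0.71, from 4.16 to 6.80 CPM). Oxct1 encodes an enzyme that burns ketone bodies. Next came the hormone-sensitive lipase gene Lipe (0.68) and Acat2 (0.67). Between the KO groups edgeR called 0 of the 84, with 4 at an unadjusted p below 0.05. In the interaction 22 were more positive and 5 more negative (32.1% against 16.8% of all genes). Among the most positive were Abcd2 (1.41), Cidec (1.30), Acsm5 (1.12) and Creb3l3 (1.04), and the 5 negative ones were Acadsb (-0.85), Acot13 (-0.84), Oxct1 (-0.78), Ucp2 (-0.68) and Acat2 (-0.67).

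Promoter sequence was examined for all members that had a promoter entry. None was held for Angptl4, Acaa2, Decr1, Acat1 or Crat, so these were not searched. RefSeq promoters of GRCm38.p6 were held for 32 of the 37 members, and the 250 bases before each start were searched on both strands for 3 motifs. The direct repeat AGGTCA, any base, AGGTCA, which PPARα and its partner RXR bind, was in 0 of the 32 members and in 0.0407% of the 27025 genes in the promoter table. The same repeat with AGGNCA in place of AGGTCA, which takes in every match to the first, was in 1 member, Fabp1, and in 0.4% of genes. GGAATG, the core that TEAD factors, the DNA-binding partners of YAP and TAZ, recognise, was in 4 members (Acsl1, Cpt1a, Ehhadh and Etfb, 12.5%) and in 14.4% of genes, a share near the background. A match is a description of letters, not of binding, and the lack of one leaves sites outside the 250 bases unread. The stretches below are those of the 4 members with the largest falls on the stiff hydrogel in wild type, which hold no match, and of Fabp1 and Cpt1a, whose matches are in capitals. They lie at chr7:45615491-45615740, minus strand (Fgf21), chr16:31422047-31422296, plus strand (Bdh1, the first of 2 starts), chr9:119157094-119157343, minus strand (Acaa1b), chr5:8997147-8997396, minus strand (Crot), chr6:71199629-71199878, plus strand (Fabp1) and chr19:3323051-3323300, plus strand (Cpt1a).
Fgf21: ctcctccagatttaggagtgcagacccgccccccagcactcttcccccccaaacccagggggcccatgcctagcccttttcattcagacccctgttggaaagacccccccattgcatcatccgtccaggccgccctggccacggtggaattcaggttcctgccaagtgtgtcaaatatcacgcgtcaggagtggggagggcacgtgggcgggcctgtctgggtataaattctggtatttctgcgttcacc
Bdh1: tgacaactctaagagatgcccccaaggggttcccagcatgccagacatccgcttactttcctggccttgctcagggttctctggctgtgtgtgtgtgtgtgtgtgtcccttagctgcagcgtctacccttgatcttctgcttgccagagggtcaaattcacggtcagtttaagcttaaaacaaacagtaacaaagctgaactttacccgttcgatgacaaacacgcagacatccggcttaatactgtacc
Acaa1b: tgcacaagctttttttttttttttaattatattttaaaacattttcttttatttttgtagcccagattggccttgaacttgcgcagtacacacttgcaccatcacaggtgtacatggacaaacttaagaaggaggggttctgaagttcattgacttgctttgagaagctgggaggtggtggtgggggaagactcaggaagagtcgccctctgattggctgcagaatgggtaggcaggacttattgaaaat
Crot: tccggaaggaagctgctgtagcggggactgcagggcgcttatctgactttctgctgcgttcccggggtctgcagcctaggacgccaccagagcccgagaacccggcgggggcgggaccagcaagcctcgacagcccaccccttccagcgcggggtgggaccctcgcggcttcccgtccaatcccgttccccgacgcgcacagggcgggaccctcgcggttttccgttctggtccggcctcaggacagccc
Fabp1: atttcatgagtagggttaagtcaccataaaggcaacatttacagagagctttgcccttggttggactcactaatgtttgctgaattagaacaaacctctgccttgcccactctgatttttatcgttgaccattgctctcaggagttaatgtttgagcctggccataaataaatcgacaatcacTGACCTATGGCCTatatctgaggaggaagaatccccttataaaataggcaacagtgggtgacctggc
Cpt1a: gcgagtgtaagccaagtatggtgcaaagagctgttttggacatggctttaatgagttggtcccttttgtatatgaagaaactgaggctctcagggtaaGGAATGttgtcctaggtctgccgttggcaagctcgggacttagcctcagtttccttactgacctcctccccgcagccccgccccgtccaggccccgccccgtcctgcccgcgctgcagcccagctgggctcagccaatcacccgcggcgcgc
In Fabp1 the repeat runs on the minus strand from 67 to 55 bases before the start, and in Cpt1a the TEAD core is on the plus strand from 152 to 147 bases before it. Neither gene was called between the wild-type groups, with values of -0.29 and -0.44.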

How the data were processed

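Poly-A RNA libraries of primary hepatocytes in 4 groups of 2 were analysed. Per the study's methods the authors aligned 150-base paired reads with HISAT2 2.0.5 and counted them per gene with featureCounts, and they deposited raw counts with no normalization. The submitters' notes list mm9, but only 1485 of 52073 genes matched by ID start where they do in GRCm38, so the build is not settled and positions are printed as deposited, apart from promoters (GRCm38.p6). The study's methods name dUTP, which marks strand, for the libraries, whereas the labels allow for dUTP or, without strand, dTTP. The strand setting of the counting and its rule for reads of shared or overlapping genes are not given in the sources used here.

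Counts were filtered (filterByExpr by group), scaled by TMM and fitted for all 8 libraries with edgeR 4.0.16 (limma 3.58.1, R 4.3.3) by glmQLFit with 1 term per group and 4 residual degrees of freedom (common biological coefficient of variation 0.0541). The quasi-likelihood test was adjusted by Benjamini-Hochberg. Standard errors are the absolute log2 fold change over the root of F, and intervals cover 95%. A count of 0 allows up to 3 counts (0.116 to 0.167 CPM, counting error only). Replicates of a group differed by more than sampling noise (chi-square per degree of freedom 2.62 to 5.45). DESeq2 1.42.0, other scalings, filters and thresholds, robust fitting, a replicate block, fits of the 4 libraries compared and each library left out were alternatives. On simulated counts with 200 genes changed (log2 fold change 1, wild type by stiffness), edgeR (13989 genes) recovered 88.5% and DESeq2 82.5%. Among the unchanged genes edgeR called 7 and DESeq2 3. Smaller changes, such as those of most members, were not simulated.

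Members, lists, motifs and tests were chosen with earlier results of these data known. All members are named, and of the other pathway genes up to 5 with the largest called rise and fall; Acox2 and Scp2 were named after their values were seen, and some genes of that list are not reported here by name. To find shared sequence, the longest GENCODE M21 transcript of each member was cut into 64-base windows, which were looked up in all other genes. The hepatocyte list named Tf, which matched no symbol. Protein sequences were not used here. Figures were drawn with matplotlib 3.10.9.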

Additional observations from a re-analysis of the deposited data

Results flagged for a closer look

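The stiffness effect differed between genotypes for 7 members by the interaction test, given as the log2 fold change in KO minus that in wild type. It was more positive in KO for Fgf21 (1.65), Bdh1 (1.58), Acaa1b (1.08), Crot (0.87), Ppara (0.74) and Acad11 (0.65), and more negative for Angptl4 (-1.36). In all 7 the KO log2 fold change was under 0.2 in size. The same held for every other member apart from Acot1, so a small KO value does not set these 7 apart. Groups of 2 libraries were too small to look for single libraries far from the rest.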

How the results depend on the processing

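Under the alternatives run, no called member changed direction, and Ppara and Acot1 alone lost calls other than by the stricter fold threshold. The thresholds moved the counts most. With no minimum fold change the members called higher and lower were 7 and 18 in wild type by stiffness, 14 and 4 in the interaction, 2 and 10 by genotype on soft, and 16 and 13 by genotype on stiff. With an absolute log2 fold change over 1 they were 1 and 3 in wild type, 3 and 1 in the interaction, 0 and 1 by genotype on soft, and 3 and 2 by genotype on stiff. Scaling by library size alone called 1 member higher on the soft hydrogel and moved the median to 0.020 there and to 0.16 on the stiff. With each library left out in turn, members called higher and lower ran from 2 to 3 and 5 to 6 in wild type (median -0.23 to -0.11), 5 to 6 and 1 to 2 in the interaction (0.11 to 0.18), 0 to 1 and 3 to 4 by genotype on the soft hydrogel (-0.067 to -0.0011) and 5 to 7 and 4 to 5 on the stiff (0.047 to 0.13). In KO by stiffness they stayed at 0 with a median of -0.051 to 0.0037. Replicate numbers gave no sign of pairing (correlations of deviations -0.10 to 0.042 over 6 pairs of groups). These correlations cannot tell whether libraries with the same number shared a mouse or preparation. A replicate block called 2 higher and 6 lower members in wild type. With 2 libraries a group, members under about 60 counts gave wide intervals. A fit of only the libraries compared was not run for the interaction, which uses all 8.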
